A study of Mus musculus with 72 samples.

Results

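The genes described here encode the proteins of the mitochondrial ribosome. They were taken from the count table by name, as every row whose symbol starts with Mrpl or Mrps and a number, which gave 69 genes of 23930 listed. Of these, 43 carry a large subunit (Mrpl) name and 26 a small subunit (Mrps) name. All 69 had enough counts to be tested in normal lung and in tumors. Mrps36 was not analysed here.

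The mitochondrial ribosome translates the few respiratory chain and ATP synthase subunits encoded by mitochondrial DNA. Its RNAs are made in the mitochondrion, while all of its proteins are encoded in the nucleus, translated in the cytosol and imported. Many descend from the proteins of the bacterial ribosome, and others are found only in mitochondria.

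The RNA came from lungs of Gprc5a-/- mice, which lack a receptor gene induced by retinoic acid, and which received NNK, a nitrosamine of tobacco smoke. Each library was made with a mouse transcriptome amplicon panel, in which 1 short amplicon stands for each gene, and was read on a semiconductor sequencer. Levels are therefore compared between samples and not between genes. Normal-appearing lung was taken at baseline before NNK (10 mice aged 8 weeks), at the end of exposure (10 mice, 16 weeks), 3 months later (9 mice, 28 weeks) and 7 months later (10 mice, 44 weeks). Lung tumors came from the end of exposure (4 tumors of 3 mice), 3 months (6 tumors of 4 mice) and 7 months (23 tumors of 9 mice). All mice lacked Gprc5a, which had at most 4 counts in any library, and no unexposed mice of the later ages were used here, so that time, age and NNK cannot be told apart in normal lung. The tumor samples are whole tumors, and each was set against the normal lung of its own animal.

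The 72 libraries held 7459147 to 21822522 counts each, and 15644 to 18645 genes were detected per library. Levels are given as CPM, counts relative to library size, after scaling by the trimmed mean of M values (TMM), which equalises the bulk of genes between libraries. Changes are log2 fold changes ± SE, tested with edgeR's quasi-likelihood test with Benjamini-Hochberg adjustment over all genes. A gene was called at an adjusted p below 0.05. The shares of all genes called in the same comparison are given as the background. In bulk tissue, fewer cells of a type and less RNA per cell cannot be told apart.

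The promoters of 61 of the 69 genes were listed in RefSeq (GRCm38.p6), as 300 bases from 250 before to 50 after the transcription start. Letters known as binding motifs of regulators of mitochondrial genes were searched on both strands. GCGCANGCG, the core of the motif of nuclear respiratory factor 1 (NRF1), stood in 15 of the 61 (24.6%), against 8.59% of the promoters of 17223 listed genes. CCGGAAG, read by the ETS-family factor GABP, stood in 19 (31.1%, against 11.2%). AAGATGGCG, read by YY1, stood in 8 (13.1%, against 1.96%). At least 1 of these was found in 35 of the 61. The CCAAT box stood in 39.3% against 38.1%, and the SP1-type letters GGGCGG in 49.2% against 45.2%. A match is a description of the letters and not evidence of binding. The promoters below belong to the gene with the largest rise in tumors (Mrpl32), a gene that was higher in the tumor of every animal (Mrpl18) and the gene with the largest fall (Mrps6).
Mrpl32: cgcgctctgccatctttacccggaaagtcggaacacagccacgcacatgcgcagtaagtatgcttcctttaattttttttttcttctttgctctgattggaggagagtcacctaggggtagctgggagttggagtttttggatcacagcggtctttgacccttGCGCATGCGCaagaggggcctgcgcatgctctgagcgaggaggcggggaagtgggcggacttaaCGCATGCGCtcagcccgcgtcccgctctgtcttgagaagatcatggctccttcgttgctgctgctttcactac
Mrpl18: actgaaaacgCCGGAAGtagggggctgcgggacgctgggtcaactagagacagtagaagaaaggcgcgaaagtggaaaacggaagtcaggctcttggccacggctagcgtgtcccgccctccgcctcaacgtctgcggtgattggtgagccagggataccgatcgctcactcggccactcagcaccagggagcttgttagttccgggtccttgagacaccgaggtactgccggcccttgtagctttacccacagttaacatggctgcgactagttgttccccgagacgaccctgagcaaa
Mrps6: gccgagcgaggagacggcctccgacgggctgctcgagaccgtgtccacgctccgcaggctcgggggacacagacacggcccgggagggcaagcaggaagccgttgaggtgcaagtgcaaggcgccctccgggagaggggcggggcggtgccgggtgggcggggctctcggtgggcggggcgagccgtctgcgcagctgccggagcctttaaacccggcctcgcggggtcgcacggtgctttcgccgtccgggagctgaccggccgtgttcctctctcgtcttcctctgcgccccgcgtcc
They lie on the minus strand at chr13:14612988-14613287 (Mrpl32), on the minus strand at chr17:12916042-12916341 (Mrpl18) and on the plus strand at chr16:92058086-92058385 (Mrps6), and are written 5′ to 3′ along the gene. Capitals mark the searched NRF1 and GABP letters. The Mrpl32 promoter held the NRF1 letters at 3 places, of which a pair overlapped on opposite strands 87 and 86 bases before the start and the other lay 23 bases before it. The Mrpl18 promoter held the GABP letters 240 bases before the start. None of the 3 mitochondrial motifs was in the Mrps6 window.

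The summed level of the 69 genes had means of 2718 to 2940 CPM in normal lung and higher means in the later tumors. In normal lung the sum was 2940 ± 224 CPM at baseline (SD, n = 10), 2779 ± 312 at the end of exposure (n = 10), 2718 ± 282 at 3 months (n = 9) and 2760 ± 250 at 7 months (n = 10). In tumors it was 2829 ± 504 at the end of exposure (SD over tumors, n = 4), 3724 ± 566 at 3 months (n = 6) and 3876 ± 677 at 7 months (n = 23). Its range in tumors at 7 months, 2470 to 4938 CPM, overlapped that of the normal lungs of the same time, 2265 to 3094 CPM. Scaled by total counts alone, the means were 3206, 3061, 3011 and 2886 CPM in normal lung and 2997, 3414 and 3368 CPM in tumors, in the same order of groups. The gap between tumor and normal lung was thus smaller on that scale.

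**Figure D1:**
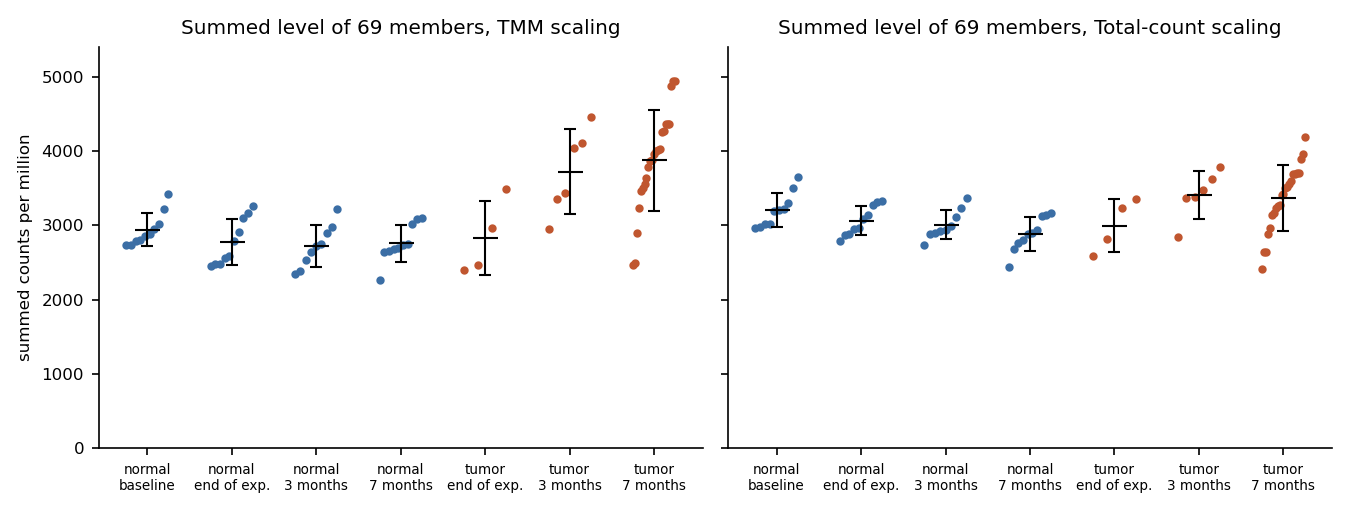
Summed level of the 69 mitochondrial ribosomal protein genes in each library (points, CPM) by group, with the mean and SD of each group, under TMM and total-count scaling. Under TMM the means of the tumors at 3 months (3724 CPM) and 7 months (3876 CPM) lie above those of the normal lungs of every time, with overlap of single libraries.

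Tumors were compared with the normal lung of the same animal in 16 animals, after adding up the counts where an animal had several tumors. Averaged over the animals, 33 of the 69 genes rose (47.8%, against 24.1% of all 15773 genes tested) and 2 fell (2.9%, against 25.2%). Of the 69, 56 lay above 0, with a median log2 change of 0.36 against -0.01 over all genes. Under total counts 42 lay above 0, and the median was 0.12 against -0.245. The largest rises were those of Mrpl32, a large subunit protein that the m-AAA protease processes, Mrps15, Mrps11 and Mrpl18, and the falls were those of the small subunit proteins Mrps6 and Mrps26.

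**Figure D2:**
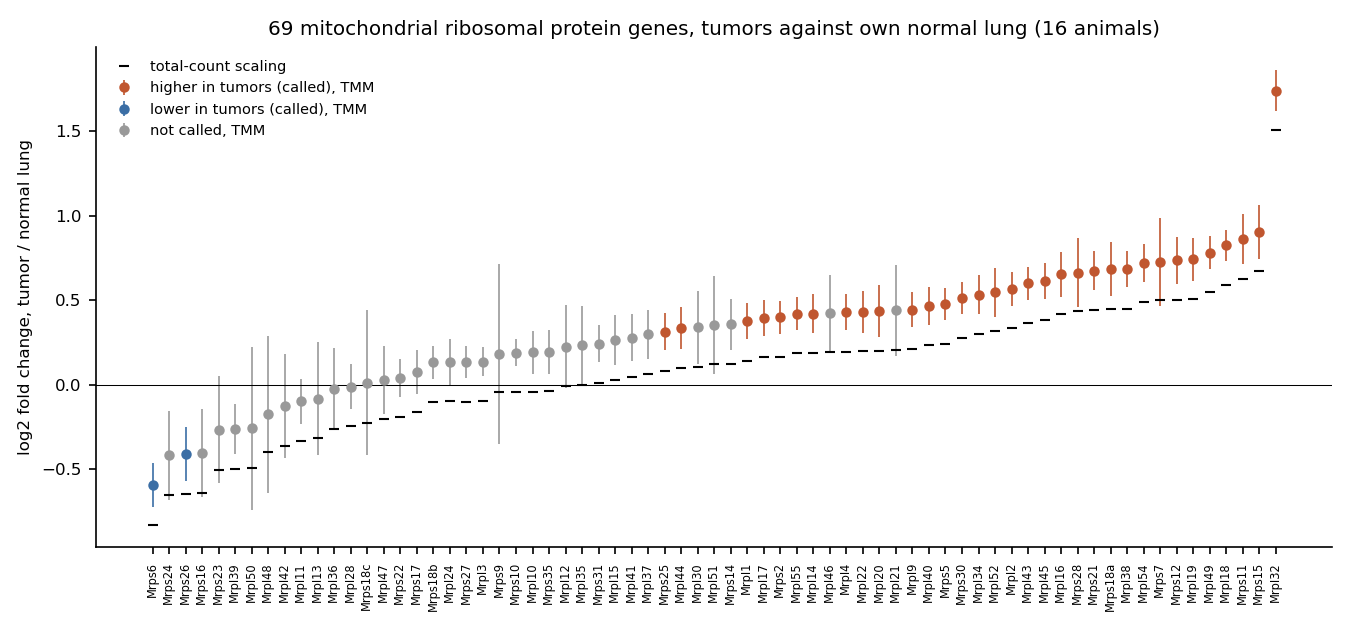
Log2 change between tumor and normal lung of the same animal for each of the 69 genes (points; bars show the SE), averaged over 16 animals under TMM scaling, with colours for called rises and falls and black dashes for the change under total counts. Mrpl32 stands apart at 1.74, and most of the genes lie above 0.

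Mrpl32 lay at 17.2 to 28.6 CPM in baseline lung (median 24.7), at 13.3 to 29.3 at the end of exposure (21.03), at 17.7 to 26.8 at 3 months (20.9) and at 14.2 to 44.7 at 7 months (21.3). The 4 tumors from the end of exposure lay at 30.8, 36, 57 and 34 CPM. The 6 tumors of 3 months lay at 39.9, 65.1, 105.8, 52.5, 163.4 and 72.6 CPM. The tumors of 7 months ran from 34.2 to 205.5 CPM with a median of 91.1. Tumor and normal values did not overlap at the end of exposure or at 3 months, and at 7 months they overlapped through 1 normal lung at 44.7 CPM, the next being 29.9. The tumor was higher in 16 of 16 animals, with log2 ratios of 0.40 to 2.79. The averaged change was 1.74 ± 0.12 (adjusted p = 1.07e-07), and it was 1.72 ± 0.245 at 3 months (adjusted p = 0.000587) and 2.05 ± 0.165 at 7 months (adjusted p = 1.26e-06). At the end of exposure, with 3 animals, it was 0.85 ± 0.28 and was not called (adjusted p = 0.0808). Every left-out animal and each scaling kept the averaged call.

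Mrpl18, the counterpart of a bacterial protein that binds a small ribosomal RNA, ran from 60.03 to 78.9 CPM at baseline (median 71.8), from 31.9 to 86.2 in normal lung at 7 months (62.3) and from 66.0 to 206 in tumors at 7 months (104.2). The ranges overlapped between libraries, yet the tumor was higher than its own normal lung in 16 of 16 animals, with log2 ratios of 0.30 to 1.27. The averaged change was 0.83 ± 0.09 (adjusted p = 3.24e-06). Under TMM the large subunit genes Mrpl49, Mrpl19 and Mrpl43 and the small subunit genes Mrps21 and Mrps5 were also higher in the tumor of all 16 animals. Under total counts this held in 16 animals for Mrpl49, 15 for Mrpl19 and Mrps21, 14 for Mrpl43 and 13 for Mrps5. Mrpl49 rose by 0.78 ± 0.10 and Mrpl19 by 0.74 ± 0.13, with medians of 50.9 and 20.7 CPM in tumors at 7 months against 32.6 and 11.9 in normal lung.

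Mrps15 had medians of 42.9 CPM in normal lung (25.4 to 88.9) and 66.5 CPM in tumors (44.8 to 165.3) at 7 months. Mrps11, which lies at the mRNA path of the small subunit, had medians of 34.9 (20.3 to 73.7) and 64.6 CPM (38.2 to 168.4). Both showed overlapping ranges, and their averaged changes were 0.91 ± 0.16 (adjusted p = 0.000178) and 0.86 ± 0.15 (adjusted p = 0.000164). Mrpl54 had medians of 146.6 (101.1 to 224.3) and 274 CPM (117.9 to 566.2) and rose by 0.72 ± 0.11 (adjusted p = 6.52e-05). Mrps12, a protein of the decoding centre, had medians of 22.6 (12.4 to 37.6) and 42.0 CPM (13.7 to 78.4) and rose by 0.74 ± 0.14 (adjusted p = 0.000302).

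Mrps6 moved the other way. It lay at 6.98 to 18.5 CPM at baseline (median 9.94), 7.27 to 27.7 at the end of exposure (15.3), 10.2 to 25.3 at 3 months (16.95) and 8.42 to 20.7 at 7 months (12.95), and in tumors at 3.6, 4.5, 7.4 and 10.4 CPM at the end of exposure, at 6.22 to 10.6 at 3 months (8.92) and at 4.55 to 21.6 at 7 months (10.1). The ranges overlapped at each time. The tumor was higher than the normal lung in 1 of 16 animals, with log2 ratios of -1.10 to 0.33. At 7 months the ratios were -0.082 to -0.025 in F1767, F1768, M7035 and M7037 and 0.325 in M7046. They were -1.104 to -0.618 in the other animals of that time. Mrps6 was not called at 7 months under TMM, but was called lower under total counts. The averaged change was -0.59 ± 0.13 (adjusted p = 0.00102), and each left-out animal kept the call. Mrps26, a mitochondria-specific small subunit protein at a median of 6.22 CPM in normal lung and 4.91 CPM in tumors at 7 months, was higher in the tumor of 3 of 16 animals. Its fall of -0.41 ± 0.16 (adjusted p = 0.0439) lost its call when any of 11 of the 16 animals was left out.

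**Figure D3:**
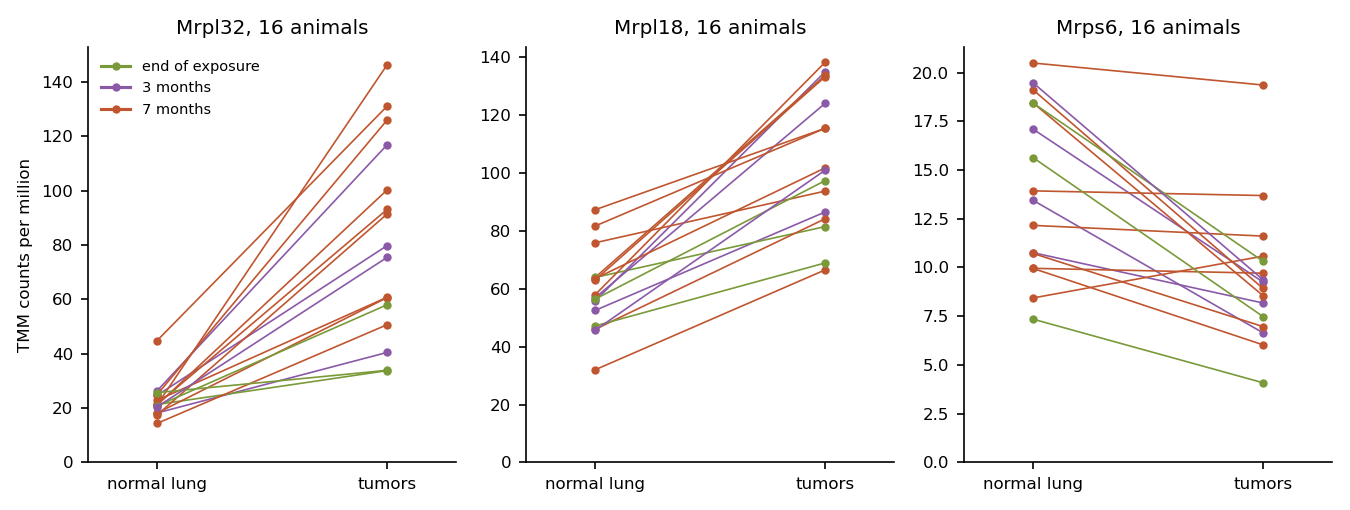
Level of Mrpl32, Mrpl18 and Mrps6 (TMM CPM, linear axes from 0) in the normal lung and in the summed tumors of each of 16 animals, joined by a line per animal and coloured by time. Mrpl32 and Mrpl18 were higher in the tumor of all 16 animals, and Mrps6 was higher in the tumor of 1.

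Among genes known for human mitochondrial disease or for distinct roles in the ribosome, Mrpl44, an RNase III-like large subunit protein, rose by 0.335 ± 0.12 (adjusted p = 0.0319), but the call was lost without any of 7 of the 16 animals and under total counts (0.10 ± 0.13, adjusted p = 0.543), RLE factors and a fit without the animal block. Mrps30 and Mrps18a, which sit in the large subunit in spite of their names, rose by 0.51 ± 0.10 (adjusted p = 0.00028) and 0.69 ± 0.16 (adjusted p = 0.00175). The other paralogs of bacterial S18, Mrps18b and Mrps18c, were not called (0.13 ± 0.10 and 0.01 ± 0.43). Mrpl12, a stalk protein that also binds the mitochondrial RNA polymerase, was at 0.23 ± 0.24, Mrpl3 at 0.14 ± 0.09, Mrpl28 at -0.01 ± 0.13 and Mrpl41 at 0.28 ± 0.14, and none of them was called. Mrps16 and Mrps22 were not called either (-0.40 ± 0.26 and 0.04 ± 0.11). Under total counts the uncalled values of Mrpl3, Mrpl12, Mrps18b, Mrps18c and Mrps22 lay below 0 (-0.10, -0.01, -0.10, -0.22 and -0.19).

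By ancestry, and beside 24.1% of all genes called higher and 25.2% called lower, rises were found in 13 of 26 large subunit genes with bacterial counterparts (median 0.39), in 11 of 19 mitochondria-specific large subunit genes (0.43), in 8 of 16 small subunit genes with bacterial counterparts (0.38) and in 1 of 8 mitochondria-specific small subunit genes (0.13). The last was Mrps25, at 0.31. Each small subunit class held 1 of the falls. Whether the classes differ was not tested. Of the 5 ribosomal proteins that the names do not cover, Dap3, Ptcd3, Aurkaip1 and Ict1 were not called, and Chchd1 fell (-0.51).

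The number called depended on the time. At the end of exposure no member was called in tumors (4.53% of all genes were called in either direction). Of the 69, 7 had an unadjusted p below 0.05 in that comparison, and the share of all genes below that limit is not given here. DESeq2 called 1 and limma-voom 0, and the median was 0.03 against 0.02 over all genes. Over all genes, DESeq2 called 708 higher and 1263 lower. At 3 months, with 4 animals, 16 rose (23.2%, against 9.29% of all genes) and 1, Mrps6, fell (1.45%, against 9.9%), with a median of 0.44 against -0.06. At 7 months, with 9 animals, 28 rose (40.6%, against 17.8%) and 0 fell (against 19.5%), with a median of 0.39 against 0.01. Of the 16 rises at 3 months, 15 were among the 28 at 7 months, which is 93.8% of the first list and 53.6% of the second. Over all genes, 1278 of 1466 rises at 3 months were among the 2808 at 7 months (87.2% and 45.5%). The count at 3 months fell to 2, 3 and 7, all of them rises, without the animals F7016, M7008 and F7015. The rises over all genes fell as well, from 1466 to 455, 508 and 714. Without F7016 the members' share lay near that of all genes. Mrpl32 and Mrpl18 were the largest-change genes whose call each left-out animal kept. The tumor effect at 7 months was also tested against that at the earlier times together, and 0% of all genes and 0 of the 69 were called, with unadjusted p below 0.05 for Mrpl32 (0.70, p = 0.00985) and Mrpl1 (0.47, p = 0.0406).

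After Mrpl32, the largest changes at 3 months were those of Mrps15 (1.13), Mrps12 (1.09), Mrpl18 (1.07), Mrpl16 (1.03), Mrps11 (0.96), Mrpl54 (0.915) and Mrpl45 (0.91). At 7 months they were those of Mrps15 (0.89), Mrps11 (0.85), Mrpl49 (0.84), Mrpl54 (0.83), Mrpl19 (0.81), Mrpl18 (0.805) and Mrpl16 (0.78). The call of each of these at 7 months was kept without any single animal. At 3 months Mrps15, Mrpl16 and Mrps11 were not called under total counts (adjusted p = 0.0544, 0.0683 and 0.0933), and Mrps6 (-0.84, adjusted p = 0.0316) lost its call without F7015, F7016 or M7008.

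The counts depended on the scaling, and a few genes held a larger share of some tumor libraries. The 10 most abundant genes held 8.172% to 30.41% of the counts of tumors at 7 months. In normal lungs of that time they held 6.756% to 21.97%, so that the ranges overlapped. Sftpc, the surfactant protein C gene of alveolar type 2 cells, held 0.577% to 6.744% in those tumors against 0.236% to 1.603% in normal lungs of all times. Under total counts the median change of all genes was -0.375 at 3 months, -0.25 at 7 months and -0.245 on average. On that scale 5 of the 69 rose and 1 fell at 3 months (4.25% and 17.3% of all genes), 15 rose and 3 fell at 7 months (9.1% and 27.7%), and 18 rose and 3 fell on average (13% and 35.6%). The falls at the last of these were Mrps6, Mrps26 and Mrpl39. All of the rises under total counts were among those under TMM. The sign of the averaged change differed between scalings for 14 of the 69. Relative to the median of all genes, the members' median stood 0.50 higher at 3 months and 0.38 higher at 7 months under both scalings. A change of scaling shifts every gene of a comparison by nearly the same amount. This difference was therefore bound to stay the same, and its agreement between scalings shows no robustness. The median of the 69 log2 ratios was above 0 in 13 of 16 animals under TMM and in 10 of 16 under total counts.

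Markers of cell types moved with these changes. In tumors, 7 of 8 alveolar type 2 markers and 7 of 7 tested proliferation markers rose, with median log2 changes of 1.85 and 1.63. All 5 club and all 6 ciliated cell markers, 5 of 6 brown fat markers and all 7 tested heart muscle markers fell. Of 6 endothelial markers 4 fell, of 5 fibroblast markers 3 fell and 2 rose, of 6 tested leukocyte markers 2 rose and 1 fell, and of 5 tested alveolar type 1 markers 3 rose and 2 fell. Marker sums are given in CPM by total counts, without TMM. The alveolar type 2 markers summed to 16940 to 54320 CPM in normal lung and 13950 to 195200 CPM in tumors at 7 months. The proliferation markers summed to 33.78 to 67.23 and 64.55 to 649.8, and the club markers to 13880 to 132700 and 733.1 to 46760. The ciliated markers summed to 1087 to 2973 and 62.09 to 1976, and the heart markers to 164.1 to 1457 and 3.07 to 311.4. The endothelial sums ran from 641.2 to 2713 and from 396.8 to 1528, the fibroblast sums from 377 to 968.6 and from 176.4 to 982.6, the leukocyte sums from 103.9 to 379.2 and from 96.45 to 1054, and the alveolar type 1 sums from 516.1 to 1289 and from 395.3 to 2037. The brown fat sums ran from 16.63 to 824.5 and from 7.87 to 254.5. The only marker at 0 in all libraries of a group was Adipoq, a brown fat list gene, in the tumors of the end of exposure. The part of cell composition in the changes of the 69 genes was not tested.

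In normal lung the members moved little. Against baseline, 0 of the 69 were called at the end of exposure (4.11% of all 14907 genes tested were called in either direction) and 0 at 3 months (1.72%). With unadjusted p below 0.05 there were 11 and 6, and the share of all genes below that limit is not given here. DESeq2 called 1 in each, and limma-voom called 1 and 0. Over all genes, DESeq2 called 520 higher and 334 lower at the end of exposure and 240 and 153 at 3 months. limma-voom called 332 and 256 at the end of exposure. At 7 months 8 fell (11.6%, against 5.31% of all genes) and 1 rose (1.45%, against 7.52%). Of the 69, 48 lay below 0, with a median of -0.13 against 0.02 over all genes. Under total counts the same 8 genes fell and 0 rose, against 4.9% and 5.05% of all genes. The 3 comparisons share the baseline lungs.

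The largest fall was that of Mrpl48, a mitochondria-specific large subunit gene for which the annotation also names a pseudogene. It lay at 33.7 to 60.8 CPM at baseline (median 42.8), 10.48 to 46.2 at the end of exposure (26.4), 18.1 to 57.0 at 3 months (37.1) and 4.17 to 52.2 at 7 months (16.5). The groups overlapped, with the 7-month lungs spread widest. Among these, the 5 lungs with the letter F in the animal name lay at 15.3 to 52.2 CPM (median 26.3) and the 5 with the letter M at 4.2 to 24.4 (median 8.4). In tumors at 7 months the order of the medians was the other way. They were 7.1 CPM (F, 9 tumors of 5 animals) and 33.6 CPM (M, 14 tumors of 4 animals). Of these 14 tumors, 7 came from the animal M7035, and tumors of 1 animal are not independent. The letter was not tested for itself. The change of Mrpl48 from baseline to 7 months was -1.11 ± 0.29 (adjusted p = 0.0107).

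Mrpl30, a large subunit gene with a bacterial counterpart, ran from 31.8 to 52.0 CPM at baseline (median 41.0) and from 16.2 to 33.7 at 7 months (27.2), so that the ranges overlapped only slightly, and its change was -0.64 ± 0.12 (adjusted p = 0.000673). Mrpl21 ran from 13.3 to 28.5 CPM (19.3) and from 4.70 to 19.3 (11.3), a change of -0.72 ± 0.18 (adjusted p = 0.0069). Mrpl12 ran from 20.01 to 28.6 CPM (23.1) and from 8.57 to 23.8 (15.7), a change of -0.57 ± 0.16 (adjusted p = 0.0152). Mrpl11, a protein of the GTPase-associated centre, ran from 40.7 to 69.5 CPM (51.8) and from 31.0 to 49.6 (38.2), a change of -0.46 ± 0.12 (adjusted p = 0.0105). These genes and Mrpl48 kept their call without any of the 39 lungs.

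The other calls were less firm. Mrps14 fell by 0.47 ± 0.14 (adjusted p = 0.0256) and lost its call without any of 4 lungs. Mrpl1 had a change of -0.38 ± 0.12 (adjusted p = 0.0245), lost without any of 3 lungs, and Mrpl47 of -0.335 ± 0.11 (adjusted p = 0.0445), lost without any of 19. The single rise, of Mrps18b, was 0.43 ± 0.15 (adjusted p = 0.0468), with 25.7 to 43.9 CPM at baseline and 30.8 to 77.6 at 7 months. It was lost without any of 12 lungs and under total counts (adjusted p = 0.087). Mrpl32, the gene with the largest rise in tumors, was at -0.03 ± 0.15 in this comparison. Mrpl1 was the member called in opposite directions, since in tumors at 7 months it was 0.58 ± 0.14 above the normal lung of 7 months, in part the same lungs (adjusted p = 0.00419). At 7 months against the end of exposure, Mrpl11 was called (-0.39 ± 0.12, adjusted p = 0.0474, against 5.75% of all genes called in either direction), and the call was lost without any of 20 of the 39 lungs.

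**Figure D4:**
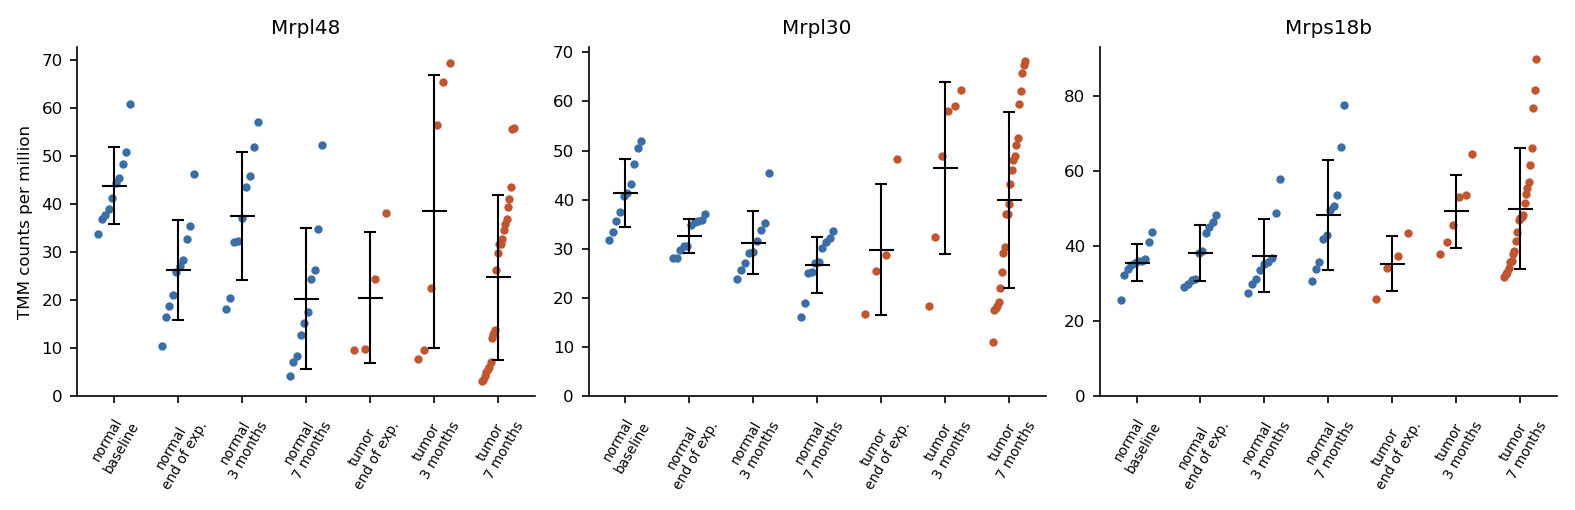
Level of Mrpl48, Mrpl30 and Mrps18b (CPM) in each library by group, with the mean and SD of each group as bars. In normal lung the medians of Mrpl48 were 42.8 CPM at baseline and 16.5 CPM at 7 months, and those of Mrpl30 were 41.0 and 27.2 CPM, with wide scatter of Mrpl48 among the 7-month lungs.

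Markers of other tissue moved here too. At 7 months 4 of 7 tested heart muscle markers, 2 of 5 club markers and 2 of 5 fibroblast markers fell against baseline, and 3 of 8 alveolar type 2 markers and 2 of 6 leukocyte markers rose. Of 6 brown fat markers 1 fell (Ucp1), of 5 alveolar type 1 markers 1 rose (Ager), of 6 endothelial markers 1 rose (Vwf) and 1 fell (Kdr), and none of 6 ciliated and 7 proliferation markers was called. By total counts without TMM, the heart markers summed to 239.4 to 6304 CPM at baseline and 164.1 to 1457 CPM at 7 months. On that scale 5 normal lungs held over 300 CPM of Myh6, the heart myosin gene. Without those lungs 6 of the 69 genes were called lower, 0 were called higher, and Mrps14, Mrpl47 and Mrps18b were no longer called. That fit held fewer lungs, and the share of all genes called in it is not given here. Fewer lungs and less heart tissue can thus not be told apart in these calls. The part of the markers in the changes of the 69 genes was not tested.

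Part of the variation within groups was shared, but not in 1 direction. Over 2346 pairs of members the median correlation was 0.12 in normal lung and 0.22 in tumors. On the component described next, 33 members loaded below 0 and 36 above 0 in normal lung. After the group means were removed, the first principal component of the 69 log2 levels held 36.46% of their variance in the 39 normal lungs and 63.5% in the 33 tumors. The gene loadings in the 2 tissues correlated with r = 0.84 across the 69 genes, which are not independent replicates, and tumors and normal lungs of an animal share that animal. At one end stood Mrps9, Mrpl48, Mrpl50, Mrps18c, Mrpl42 and Mrpl13, and at the other Mrps7, Mrps11, Mrps28, Mrpl24, Mrpl28 and Mrps15. The median transcript GC content was 42.73% in the first 6 and 55.26% in the others. Across the 69 genes GC content and loading had a Spearman correlation of 0.45 in normal lung and 0.27 in tumors.

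The within-group spread in normal lung, as the SD of log2 CPM, was largest for Mrps18c (0.80), Mrps9 (0.73) and Mrpl48 (0.71). It was smallest for Mrpl10 (0.20), Mrps10 (0.21) and Mrps25 (0.23), among 67 members at 5 CPM or more. The median SD was 0.355 in normal lung and 0.51 in tumors, and 68 of the 69 genes had the larger SD in tumors. The same count was not made over all genes, so a trait of these genes cannot be told from one of the tumor libraries. The 33 tumors came from 16 animals, some with several tumors, while each normal lung was 1 library of 1 animal.

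A companion index was built from other genes to follow this variation. It is the mean log2 level of 50 genes outside the family that rose with the component in normal lung (such as Zfp787 and Hacd3) minus that of 50 that fell with it (such as Npm1, Snrpb2 and Ccdc47), set to 0 at the baseline mean. Because its genes were chosen by the members' own variation in normal lung, its relation to the members there is not a finding. Its median was -0.15 in baseline lung (-1.25 to 0.83), 0.93 at the end of exposure (-0.13 to 1.69), -0.07 at 3 months (-1.11 to 2.30) and 1.23 at 7 months (-1.43 to 4.15). In tumors it was 0.57 at the end of exposure, -0.01 at 3 months and -0.10 at 7 months (-1.19 to 3.74). The median of the 7-month lungs was thus higher than that of baseline lungs and their range wider. By letter, the 7-month lungs had index medians of -0.07 (F) and 2.39 (M). What the index follows was not tested.

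**Figure D5:**
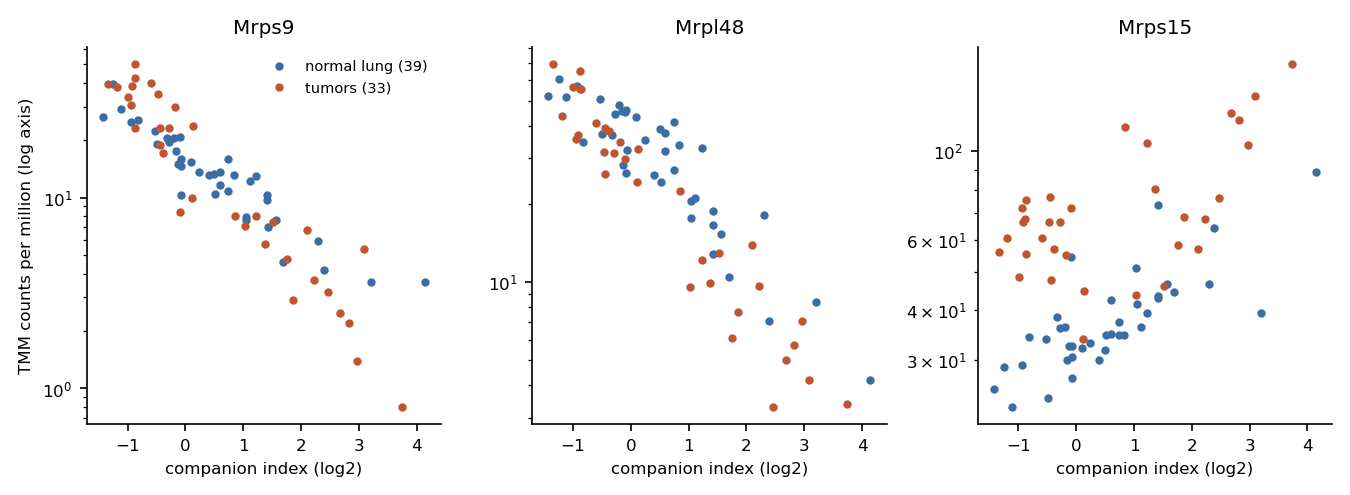
Level of Mrps9, Mrpl48 and Mrps15 (CPM, log axis) in each of 72 libraries against the companion index (log2 units, 0 at the baseline mean), with normal lungs and tumors marked. The genes of the index were chosen on the normal lungs. Mrps9 and Mrpl48 fall and Mrps15 rises along it, and its range in normal lung at 7 months runs from -1.43 to 4.15.

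Other genes of mitochondrial gene expression and energy metabolism were counted in the averaged tumor comparison, beside 24.1% of all genes called higher and 25.2% called lower. The lists were not tested against each other. Of 71 tested nuclear-encoded respiratory chain and ATP synthase genes, 23 rose and 3 fell (median 0.25), among them the complex I genes Ndufa3 (1.02) and Ndufs8 (0.82) and the muscle and brown fat isoform Cox8b (-4.12). Of 11 translation factors 3 rose, namely Oxa1l, which inserts new proteins into the inner membrane (0.63), the elongation factor Gfm1 (0.29) and the initiation factor Mtif3 (0.51). Of 16 mitochondrial aminoacyl-tRNA synthetases, Vars2 and Mars2 rose and Hars2 fell (-0.40). Of 19 ribosome assembly genes, Mpv17l2 rose (0.49) and Fastkd2 (-0.99) and Mterf4 (-0.38) fell. Among 9 regulators of mitochondrial biogenesis, Myc (1.16), Gabpb1, a subunit of GABP (0.43), and the coactivator Ppargc1b (0.49) rose. Tfam, which packages mitochondrial DNA, rose as well (0.48). Of 22 tested cytosolic ribosomal protein genes, 4 rose and 1 fell, with a median of 0.10. Under total counts 8 rose and 7 fell of the respiratory chain genes, and 1 rose and 4 fell of the cytosolic ribosomal protein genes. On that scale 13% of all genes were called higher and 35.6% lower. In normal lung at 7 months, 8 of the 71 respiratory chain genes fell against baseline and 0 rose, against 5.31% and 7.52% of all genes, with Ndufa10, Uqcrc2 and Uqcrfs1 at -0.83, -0.825 and -0.71.

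Members with and without the promoter letters are set side by side here, with no test between them. Averaged rises were found in 8 of 15 genes with the NRF1 letters and 20 of 46 without, in 9 of 19 with the GABP letters and 19 of 42 without, and in 2 of 8 with the YY1 letters and 26 of 53 without. Of the 69 genes, 16 (23.2%) start within 1000 bases of a gene on the other strand that is transcribed away from them, against 7.21% of 18381 protein-coding genes of the table in the GENCODE annotation. Of the 14 such partners tested, 5 rose and 2 fell in tumors. Mrpl32 starts 75 bases from Psma2, a proteasome subunit gene, which rose by 0.40 ± 0.16 (adjusted p = 0.0487), and Mrpl54 starts 26 bases from Apba3, which rose by 0.57 ± 0.08 (adjusted p = 4.18e-05). Mrps12 starts 172 bases from Sars2, the mitochondrial seryl-tRNA synthetase, which was not called (0.04 ± 0.16).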

How the data were processed

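RNA of 72 libraries was measured as read counts per gene, deposited by the authors as 1 table of whole numbers, per the file headers. For aligner, counting program and build the sources used here give no name. Samples were grouped by GEO's labels, and 2 columns matching no sample were not used. With R 4.3.3, edgeR 4.0.16 and limma 3.58.1, genes of low count were dropped (filterByExpr), library sizes scaled by TMM and genes tested by quasi-likelihood F tests, with Benjamini-Hochberg adjustment over all genes (threshold 0.05). Normal lungs entered 1 fit of 39 libraries, 1 per animal. Tumors of an animal were summed and fitted with its normal lung in 32 columns with an animal block, since the samples of a pair come from the same animal. P-values measure the spread between animals. The scripts were tested on simulated data. Alternatives were total counts, RLE factors, no filter, DESeq2 1.42.0, limma-voom, covariates, other sample sets and leaving out each animal or lung.

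The 69 genes and all lists were chosen with earlier results of these data known. Named are a panel of genes with known roles, the up to 8 largest called rises and falls per comparison at 5 CPM or more, the 3 members of largest and of smallest spread, members called in opposite directions, and the 3 genes of smallest p per other list. The labels do not define F and M in animal names or ADN and ADC in titles. Annotation came from GENCODE and RefSeq.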

Additional observations from a re-analysis of the deposited data

Results flagged for a closer look

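Of 210 sets of values (34 named members and the summed level in 6 groups of 4 to 10 samples), 12 held 1 library whose gap to the next was large for the group's range, in CPM. Chance alone flags about 1 in 20 groups, so this number is near what chance gives. Baseline replicate 3 was such a library for 4 genes, with low Mrpl10 (20.9, the next being 27.3) and Mrps12 (9.68, next 19.9) and high Mrps18c (22.8, next 11.1) and Mrps9 (39.4, next 22.5). Baseline replicate 1 was high in Mrps15 (54.4, next 38.4). In normal lung at 3 months, replicate 7 was high in Mrpl41 (22.5, next 14.1) and Mrps22 (35.3, next 21.6). In normal lung at 7 months, replicate 7 was high in Mrpl44 (47.1, next 30.7) and Mrps10 (78.3, next 64.7), and replicate 9 in Mrpl32 (44.7, next 29.9). Among tumors, replicate 1 of the end of exposure was high in Mrpl16 (35.6, next 16.1) and replicate 5 of 3 months in Mrps15 (115.2, next 68.3).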

How the results depend on the processing

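The number of members called stayed within 1.5 times in 67 of 90 other fits and in 197 of 236 fits with 1 animal or lung left out. The median change moved by less than the spread between samples in 89 of 90 and 236 of 236. That limit is wide, an SD between animals of 0.18 to 0.27 in the tumor comparisons. A fall of the 7-month tumor median from 0.39 to 0.14 under total counts stayed within it. These numbers therefore do not show that the medians are stable. No named change that was called under either scaling reversed, while 18 named values that were called in neither changed sign under total counts. In normal lung at the end of exposure against baseline (main count 0), 1 was called by DESeq2, limma-voom, with the letter F or M as a covariate and without the lungs of fewest counts, and 4 with only the 2 groups fitted. At 3 months (main 0), 1 was called by DESeq2 and without those lungs. Over all genes, the 2-group fit at the end of exposure called 602 higher and 461 lower, against 372 and 240 in the main fit. DESeq2 at 3 months called 240 and 153, against 162 and 95. At 7 months (main 9), 5 were called with only the 2 groups and 5 with the companion index, a covariate chosen after seeing the data. Its genes were picked by the members' own variation in these lungs, so calls kept or lost under it support nothing. Over all genes, these 2 fits called 758 and 757 higher and 457 and 728 lower, against 1121 and 791 in the main fit. At 7 months against the end of exposure (main 1), 4 were called under total counts, 3 by DESeq2, 2 with the letter, 5 with the index and 0 with no filter, limma-voom, only the 2 groups or without the lungs of fewest counts. Over all genes, these fits called 232 to 731 higher and 194 to 714 lower, against 488 and 369 in the main fit. In tumors at the end of exposure (main 0), DESeq2 called 1 and the index fit 4. Over all genes, they called 708 and 931 higher and 1263 and 1053 lower, against 305 and 410 in the main fit. At 3 months (main 17), total counts gave 6, with a median of 0.12, and the index fit 29. All-gene calls there were 1466 higher and 1561 lower (main), 670 and 2733 (total counts) and 2389 and 2846 (index). At 7 months (main 28) total counts gave 18, and on average (main 35) 21. The shares of all genes for these are given above. The summed level was 3206 CPM at baseline and 3011 CPM at 3 months under total counts. The cause of these shifts was not tested.

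With 1 animal or lung left out, the counts ran from 0 to 1 (end of exposure), 0 to 1 (3 months), 5 to 16 (7 months) and 0 to 2 (7 months against the end of exposure) in normal lung, and from 0 to 0, 2 to 19, 24 to 30 and 30 to 37 in tumors (3 times and average), and 0 to 0 for the difference between times. At 7 months in normal lung, 5 fell and 0 rose without baseline replicate 5 and likewise without 7-month replicate 9. Without 7-month replicate 3, 16 were called, of which 14 fell and 2 rose. The calls over all genes moved as well. In that order of fits, 907, 724 and 1351 genes rose and 546, 464 and 1089 fell. The main fit had 1121 rises and 791 falls. The medians ran from -0.115 to -0.05, -0.13 to -0.07, -0.135 to -0.07 and -0.05 to 0.01 in normal lung, from -0.10 to 0.11, 0.36 to 0.54, 0.32 to 0.45 and 0.29 to 0.41 in tumors, and from 0.01 to 0.18 for the difference.

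Without the replicate block for the animal, the counts of calls stayed within 1.5 times, while Mrpl44 lost its call on average and at 7 months and Mrps6 at 3 months. Leaving out the ADC-titled or the Foxj1-rich tumors, or fitting each tumor on its own, did the same for the counts. Leaving out lungs rich in Myh6 was not run for tumors because no animal with a tumor had such a lung. With 3 and 4 animals, the first times give less precise tumor effects than the 9 of 7 months, and single amplicons limit what each gene's value stands for.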

Other observations

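In some animals the tumors differed widely from each other in some members. In the animal M7033 the 7-month tumors lay at 4.2 and 55.6 CPM for Mrpl48 and at 74.6 and 205.5 CPM for Mrpl32, with 1 library at each value. In M7035, with 7 tumors, Mrpl48 ran from 5 to 43.6 CPM and Mrpl32 from 66 to 114.5 CPM. In F7020, with 3 tumors, Mrpl32 ran from 34.2 to 139.6 CPM and the sum of the 69 genes from 2470 to 4267 CPM. In the other animals with several tumors at 7 months, Mrpl48 ran from 29.9 to 35.8 CPM (F1768) and from 3.3 to 7.1 (F7021). It ran from 13.9 to 34.6 CPM in M7037 and from 41 to 55.8 in M7046. The spread within animals was not compared with that between animals. These values are from single libraries and carry no test.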
